A study of Mus musculus with 12 samples.

Results

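The removal of amyloid-beta peptide from the brain, and the lipid transport tied to it, were followed through 9 genes: Mme, Ece1, Ece2, Ide, Mmp2, Lrp1, Lrp2, Ager and Abca1. They were chosen by function and not by a rule on measured values, though with earlier results of these data known. Their rows are those of the deposited count table whose Ensembl identifiers carry these symbols in the GENCODE M21 mouse annotation. The table lists 54532 genes, of which 17307 passed a filter on low counts and were tested. All 9 passed that filter and were tested. No gene of the 9 differed by Hras genotype or by sex past the threshold used, an adjusted p of 0.05.

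The study sequenced messenger RNA from the frontal cortex of 12 mice at 9 months of age, in 4 groups of 3: APP/PS1/Hras-/- males, APP/PS1 males, APP/PS1/Hras-/- females and APP/PS1 females. All 12 mice carry the APP/PS1 transgenes, which drive amyloid deposition, so each comparison is made within an amyloid model and mice without the transgenes were not analysed here. APP/PS1/Hras-/- mice are in addition knocked out for Hras, the gene of the small GTPase H-Ras. None of the sources used here gives the promoters of the transgenes, the genetic background or how the knockout was made. The question put by the design is what the loss of Hras changes in the cortex of this model.

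Amyloid-beta is cut from its precursor protein by the secretases and then leaves the tissue by several routes. Proteases outside and inside cells cleave it: neprilysin (Mme), the endothelin-converting enzymes (Ece1 and Ece2), insulin-degrading enzyme (Ide) and gelatinase A (Mmp2). Receptors carry it, alone or bound to apolipoprotein E, into cells or across the wall of blood vessels: LRP1 and megalin (Lrp2) are known for uptake and export, and the receptor for advanced glycation end products (Ager) for influx from blood. The cholesterol exporter ABCA1 loads lipid onto apolipoprotein E, and liver X receptors switch its gene on.

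Total counts ran from 13984692 to 20174131 per library, and levels are given in CPM, counts divided by the library total after scaling by the trimmed mean of M values. Hras averaged 21.3 ± 1.68 CPM in APP/PS1/Hras-/- mice and 82.7 ± 9.83 CPM in APP/PS1 mice (SD, n = 6 each), with no overlap (log2 difference -1.95, edgeR adjusted p = 3.05e-09), so the labels hold in every library and some Hras reads remain. The excitatory neuron marker Slc17a7 had 964 to 1440 CPM in APP/PS1/Hras-/- libraries and 1040 to 1440 CPM in APP/PS1 libraries. Choroid plexus, striatal and oligodendrocyte genes varied between mice of 1 group: Ttr had 3.55 to 551 CPM in APP/PS1/Hras-/- libraries and 27.7 to 2830 CPM in APP/PS1 libraries. Known from an earlier look at these data to stand apart from the rest are 2 libraries, APP/PS1/Hras-/- male 1 and APP/PS1 female 2, of which the second holds the highest Ttr, and results that move without them are given both ways. The RNA integrity number was 8.6 to 8.7 in APP/PS1/Hras-/- males and 7.8 to 8.3 in APP/PS1 males, so among males it cannot be told apart from genotype, while it was 8.3 to 8.5 in APP/PS1/Hras-/- females and 8.5 to 8.6 in APP/PS1 females. In bulk tissue, fewer cells of a type and less RNA per cell cannot be told apart.

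Divided by exonic length, which runs from 2141 bases for Ager to 17717 for Lrp1, the mean levels spanned a 1510-fold range. Lrp1 was highest at 45.4 ± 2.93 CPM per kilobase of exon (SD, n = 12), above 94.9% of the tested genes. Ide at 14.4 ± 0.854 and Ece1 at 13.2 ± 1.37 CPM per kilobase came next, with Ide above Ece1 in 11 of 12 libraries and overlapping ranges. Abca1 followed at 5.18 ± 0.809 CPM per kilobase, below Ece1 and above the next gene in 12 of 12 libraries. Mmp2, Ece2 and Mme lay together at 1.07 ± 0.311, 0.998 ± 0.232 and 0.869 ± 0.197 CPM per kilobase, and each exceeded the next in only 7 of 12 libraries (Mmp2 over Ece2, Ece2 over Mme), so their order does not hold beyond the spread. Ager at 0.345 ± 0.0786 and Lrp2 at 0.0301 ± 0.0189 CPM per kilobase closed the order, with no overlap between them. Among the 5 enzymes of the 9 genes, Ide and Ece1 thus had the most transcript per length, and neprilysin (Mme) had less than both in every library.

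**Figure D1:**
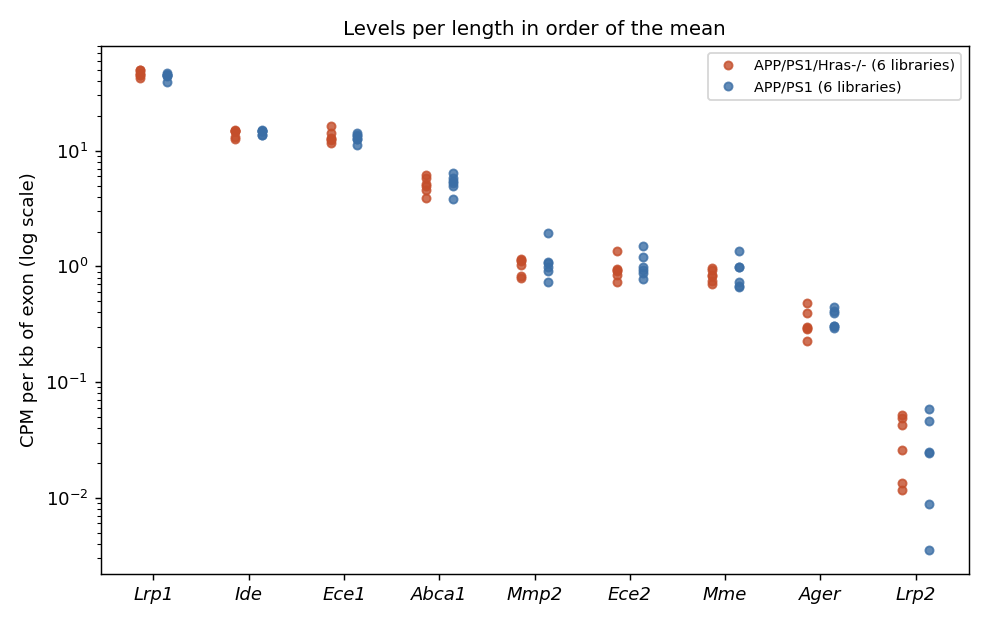
Level of each gene in CPM per kilobase of exon (log axis) in each of 12 libraries, APP/PS1/Hras-/- to the left of APP/PS1, ordered by the mean. Lrp1 lies between 38.9 and 49.9 and Lrp2 between 0.00356 and 0.0586, and at each gene the points of the genotypes overlap.

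The sequences before the transcription starts of 3 genes are shown because these genes bear on what follows: Lrp1 as the highest in level, Ager as 1 of the 2 lowest, and Abca1 because the liver X receptor genes are examined with it. Each is the 250 bases before the start in RefSeq on GRCm38.p6, printed 5′ to 3′ on the gene's strand. For Lrp1 (chr10:127621149-127621398, minus strand) and Ager (chr17:34597600-34597849, plus strand) capitals mark CpG dinucleotides. For Abca1 (chr4:53159896-53160145, minus strand) capitals mark the 2 motifs described after them.
Lrp1: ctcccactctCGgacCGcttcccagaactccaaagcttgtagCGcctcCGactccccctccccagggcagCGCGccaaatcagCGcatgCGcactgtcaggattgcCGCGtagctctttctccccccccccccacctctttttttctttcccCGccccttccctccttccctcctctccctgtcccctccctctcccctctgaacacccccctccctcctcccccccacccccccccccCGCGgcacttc
Ager: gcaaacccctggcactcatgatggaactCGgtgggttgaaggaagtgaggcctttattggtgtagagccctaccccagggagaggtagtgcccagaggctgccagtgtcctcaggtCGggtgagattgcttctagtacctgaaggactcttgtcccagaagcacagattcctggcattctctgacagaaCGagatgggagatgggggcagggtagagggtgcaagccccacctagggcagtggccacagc
Abca1: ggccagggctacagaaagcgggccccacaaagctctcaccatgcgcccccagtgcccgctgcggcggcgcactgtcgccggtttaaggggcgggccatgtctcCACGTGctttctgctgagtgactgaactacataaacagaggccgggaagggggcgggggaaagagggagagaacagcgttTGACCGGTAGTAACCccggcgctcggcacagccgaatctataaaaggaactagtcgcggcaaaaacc

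The Lrp1 window holds 13 CpG dinucleotides and the Ager window 3, which is 0.75 and 0.15 of the number their base composition gives, against a median of 6 in 32851 such windows of all genes. The Abca1 window holds 20 CpG and 2 motifs. One is CACGTG, an E-box, read the same on both strands, from 147 to 142 bases before the start, and 6.02% of all windows hold one. The other is GGTTA and GGTCA with 5 bases between them, searched on both strands, an imperfect form of the direct repeat that liver X receptors are known to bind in this promoter. It lies on the opposite strand from 67 to 53 bases before the start, does not overlap the E-box, and is in 15 windows, 0.0457% of all. Only this exact form was searched, so its presence here and its rarity elsewhere follow from that choice. A window was in the table for 8 of the 9 genes, the exception being Mmp2. No other window of these genes held the repeat, while a window of Ece1 also held an E-box. Lrp2, the lowest in level, holds 18 CpG, so among the members the number of CpG does not follow the level. A match of letters is a description and no sign of binding.

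Between genotypes, none of the 9 genes passed edgeR's quasi-likelihood test with Benjamini-Hochberg adjustment over all 17307 genes, and the background was near 0 as well: 0.0173% of all genes across the sexes, 0.0116% in males, 0.0116% in females and 0% for the difference between the sexes in genotype effect were called. DESeq2 called 0 of the 9 genes in each comparison as well. At an unadjusted p under 0.05 the count was 0 of 9 genes in each of these comparisons. Over all genes it was 291 (1.68%) across the sexes, 677 (3.91%) in males, 659 (3.81%) in females and 1248 (7.21%) for the interaction. The median log2 difference across the sexes was -0.0486 over the 9 genes and 0.0024 over all genes, with 3 of 9 genes and 51.1% of all genes higher in APP/PS1/Hras-/- mice. In males 5 of 9 and in females 4 of 9 were higher, with medians of 0.1102 and -0.0336. Two-sided exact permutation tests of log2 CPM, 6 mice against 6, gave p from 0.234 for Lrp1 to 0.755 for Mme, where 0.0022 is the smallest such a test can give. Groups without overlap were found for 0 of 9 genes across the sexes, against 0.116% of all genes, for 1 of 9 in males, against 10.3%, and for 0 of 9 in females, against 9.34%.

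**Figure D2:**
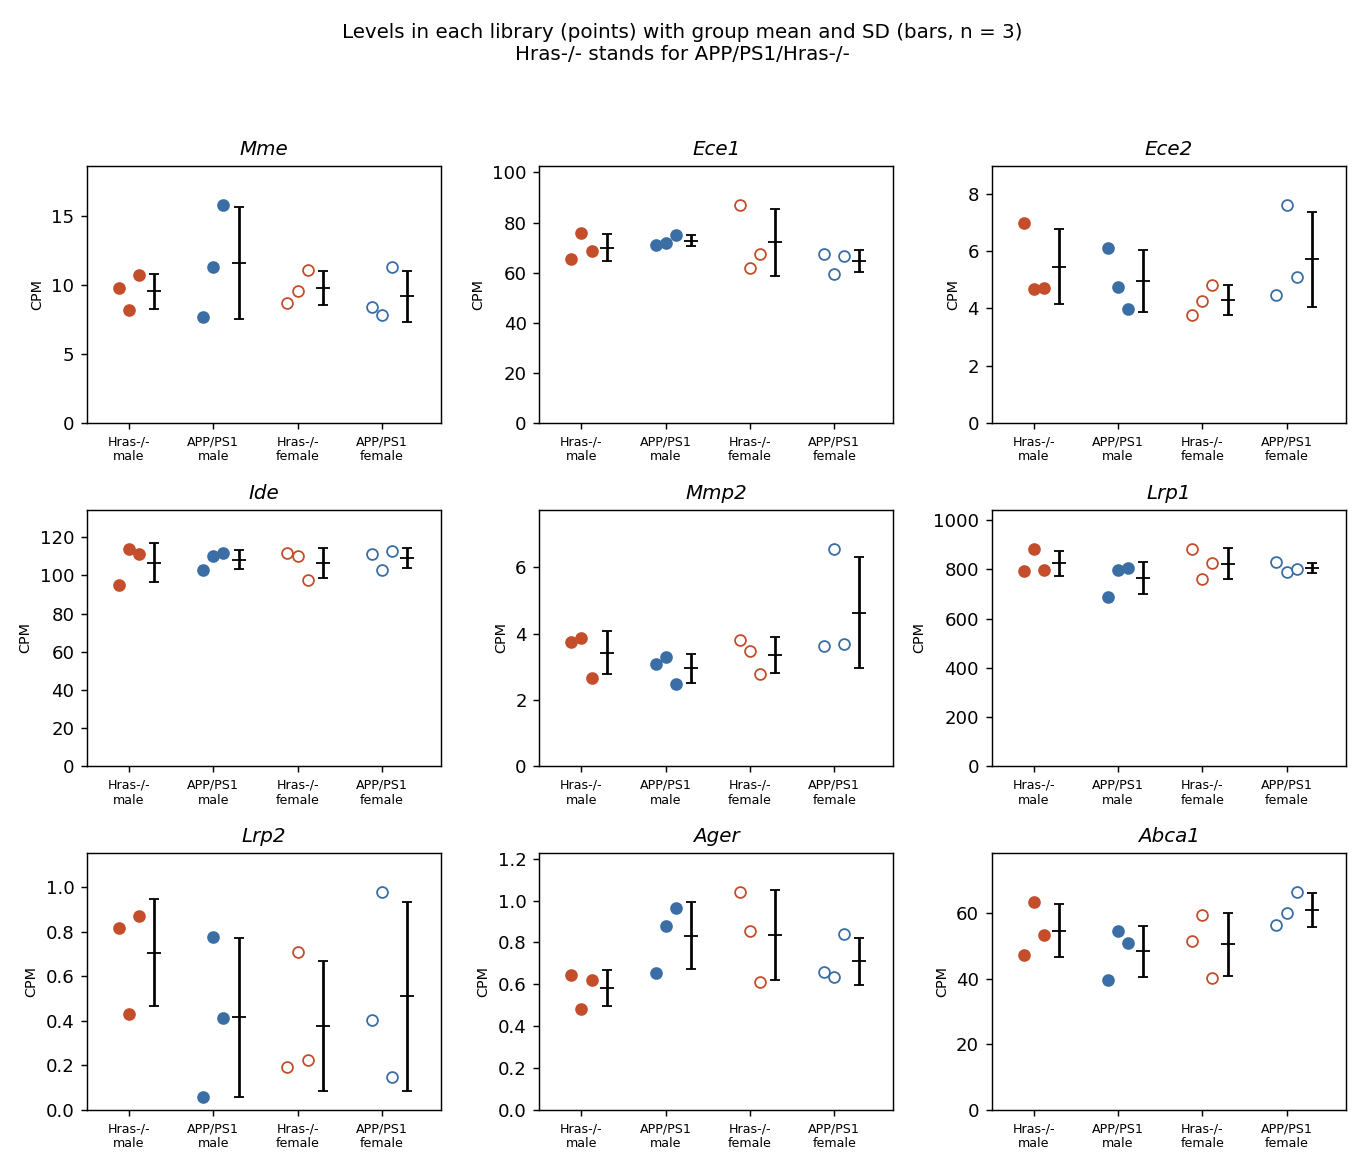
CPM of each gene in each library (points; filled, male; open, female), with the mean and SD of each group of 3 at its right; the axis of each panel starts at 0. Genotypes overlap in both sexes except for Ager in males, where 3 values from 0.483 to 0.644 CPM lie under 3 values from 0.653 to 0.962 CPM.

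Mme (ENSMUSG00000027820; GRCm38 chr3:63241537-63386030, plus strand) encodes neprilysin, a membrane-bound metallopeptidase that cleaves small peptides such as enkephalins, substance P and amyloid-beta outside the cell. In males it had 9.77, 8.16 and 10.7 CPM in APP/PS1/Hras-/- mice, against 7.66, 11.3 and 15.8 CPM in APP/PS1 mice. In females it had 8.69, 9.6 and 11.1 CPM in APP/PS1/Hras-/- mice, against 8.4, 7.83 and 11.3 CPM in APP/PS1 mice. The APP/PS1 males hold both the lowest and the highest of the 12 values, and the groups overlap in both sexes. Mme averaged 9.67 ± 1.12 CPM in APP/PS1/Hras-/- mice and 10.4 ± 3.13 CPM in APP/PS1 mice (SD, n = 6 each). The log2 difference was -0.09 across the sexes (SE 0.165, 95% interval -0.45 to 0.26), -0.28 in males and 0.09 in females. Leaving out APP/PS1 male 3, the highest, turned the value across the sexes to 0.056. With the RNA integrity number in the model the value was -0.933 in males (SE 0.393, edgeR adjusted p = 0.641) and 0.265 in females.

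Ece1 (ENSMUSG00000057530; chr4:137862237-137965229, plus strand) encodes endothelin-converting enzyme 1, which makes active endothelin and cleaves amyloid-beta in acidic compartments inside cells. APP/PS1/Hras-/- males had 65.4, 75.9 and 68.7 CPM, against 71, 72 and 75.1 CPM in APP/PS1 males. Among females the values were 86.9, 61.7 and 67.5 CPM in APP/PS1/Hras-/- mice and 67.4, 59.4 and 66.6 CPM in APP/PS1 mice. APP/PS1/Hras-/- female 1 is the highest of the 12, and the groups overlap. Ece1 averaged 71 ± 9.07 CPM in APP/PS1/Hras-/- mice and 68.6 ± 5.47 CPM in APP/PS1 mice (SD, n = 6 each). The log2 difference across the sexes was 0.05 (SE 0.0822, 95% interval -0.12 to 0.23), a fold of 1.04 with bounds of 0.918 and 1.17, and -0.03 without that female. In males it was -0.06, and -0.291 with the RNA integrity number in the model; in females it was 0.16, and 0.002 without APP/PS1/Hras-/- female 1.

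Ece2 (ENSMUSG00000022842; chr16:20629828-20646485, plus strand) encodes the related endothelin-converting enzyme 2, which works at acidic pH in neurons and neuroendocrine cells. Its level is uncertain: 2937 of its 5110 exonic bases (57.5%) are shared on the same strand with Gm49333, an overlapping protein-coding gene model, which has 0 counts in all 12 libraries, and no source used here says how reads in shared exons were counted. In males Ece2 had 6.97, 4.67 and 4.72 CPM in APP/PS1/Hras-/- mice, against 6.12, 4.76 and 3.98 CPM in APP/PS1 mice. Female values were 3.76, 4.27 and 4.82 CPM in APP/PS1/Hras-/- mice and 4.45, 7.6 and 5.08 CPM in APP/PS1 mice. The highest value of each genotype comes from 1 of the 2 libraries that stood apart, and the groups overlap. The log2 difference was -0.14 across the sexes (SE 0.183, 95% interval -0.53 to 0.26), 0.14 in males and -0.41 in females. Without APP/PS1 female 2 the value across the sexes was 0.008, and the value in females was -0.152; without both libraries the value in males was -0.08. Fitted together with the RNA integrity number, the value was 1.025 in males (SE 0.399, edgeR adjusted p = 0.63) and -0.615 in females.

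Ide (ENSMUSG00000056999; chr19:37268743-37337852, minus strand) encodes insulin-degrading enzyme, a zinc protease of the cytosol and extracellular space that cleaves insulin and amyloid-beta. It had 95, 114 and 111 CPM in APP/PS1/Hras-/- males, against 103, 110 and 112 CPM in APP/PS1 males. It had 112, 110 and 97.6 CPM in APP/PS1/Hras-/- females, against 111, 103 and 113 CPM in APP/PS1 females. The 12 values lie within a factor of 1.2 of each other, and the groups overlap. Across the sexes the log2 difference was -0.03 (SE 0.0597, 95% interval -0.16 to 0.1), which as a fold runs from 0.898 to 1.07. In males it was -0.02, and -0.253 with the RNA integrity number in the model. Of the 9 genes Ide had the smallest spread over the 12 libraries, an SD of 0.088 on the log2 scale, at percentile 9.21 of all tested genes and at percentile 23.8 of the 500 genes nearest to it in level.

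Mmp2 (ENSMUSG00000031740; chr8:92827291-92853420, plus strand) encodes a secreted matrix metalloproteinase of fibroblasts, astrocytes and vascular cells. In males it had 3.75, 3.87 and 2.67 CPM in APP/PS1/Hras-/- mice, against 3.09, 3.31 and 2.47 CPM in APP/PS1 mice. In females the values were 3.82, 3.48 and 2.77 CPM in APP/PS1/Hras-/- mice and 3.64, 6.56 and 3.7 CPM in APP/PS1 mice. APP/PS1 female 2 stands far above the others, and the groups overlap in each sex. The difference was -0.13 across the sexes (SE 0.201, 95% interval -0.56 to 0.30), 0.21 in males and -0.46 in females. Without both libraries that stood apart the value across the sexes was 0.002, and without APP/PS1 female 2 alone the value in females was -0.131. The values were -0.26 across the sexes and 0.37 in males when the RNA integrity number was in the model. In the library of APP/PS1 female 2 the 12 choroid plexus and ependymal markers summed to 3210 CPM, against at most 617 CPM in any APP/PS1/Hras-/- library, and the 12 leptomeningeal markers to 241 CPM, against 99.2 to 196 CPM; their part in the Mmp2 value was not tested.

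Lrp1 (ENSMUSG00000040249; chr10:127538161-127621148, minus strand) encodes a large endocytic receptor found on neurons, glia and vascular cells. In males it had 792, 884 and 796 CPM in APP/PS1/Hras-/- mice, against 689, 798 and 804 CPM in APP/PS1 mice. Its female values were 884, 759 and 826 CPM in APP/PS1/Hras-/- mice and 830, 790 and 801 CPM in APP/PS1 mice. The value of 689 CPM, in APP/PS1 male 1, is the lowest, and the groups overlap. Lrp1 averaged 824 ± 51.6 CPM in APP/PS1/Hras-/- mice and 785 ± 49 CPM in APP/PS1 mice (SD, n = 6 each). The log2 difference was 0.07 across the sexes (SE 0.0628, 95% interval -0.07 to 0.20), a fold of 1.05 with bounds of 0.956 and 1.15, and 0.11 in males. With the RNA integrity number in the model the value in males was -0.165; APP/PS1 male 1 has the lowest integrity number of the 12, 7.8, and holds the lowest value of the 12 for Mme, Lrp1, Lrp2 and Abca1. The part of RNA quality in these values was not tested beyond that model.

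Lrp2 (ENSMUSG00000027070; chr2:69424340-69586065, minus strand) encodes megalin, a related large receptor known from absorptive epithelia, among them the choroid plexus and ependyma. In this cortex it was barely counted, with 1 to 17 reads a library and a median of 8. Levels in males were 0.819, 0.43 and 0.87 CPM in APP/PS1/Hras-/- mice, against 0.0594, 0.776 and 0.412 CPM in APP/PS1 mice. Levels in females were 0.194, 0.711 and 0.222 CPM in APP/PS1/Hras-/- mice and 0.405, 0.978 and 0.148 CPM in APP/PS1 mice. The values spread widely, with 1 read in APP/PS1 male 1, and the genotypes overlap in both sexes. The difference across the sexes, 0.17 (SE 0.546), has a 95% interval of a 0.5-fold to a 2.53-fold level, and it was -0.292 with the RNA integrity number in the model. Without that number the log2 difference was 0.711 in males (SE 0.745) and -0.445 in females (SE 0.795). The highest value, 0.978 CPM, is in APP/PS1 female 2, the library with the highest Ttr, while over the 12 libraries Lrp2 had r = 0.255 and rho = 0.147 with the choroid plexus and ependymal markers (permutation p = 0.429 and 0.65), and r = -0.095 without the 2 libraries farthest from the median of those markers.

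Ager (ENSMUSG00000015452; chr17:34597862-34600936, plus strand) encodes a pattern receptor that binds S100 proteins, HMGB1 and amyloid-beta, and is known for low levels outside the lung. Between 9 and 17 reads a library fell on it. In males Ager had 0.644, 0.483 and 0.622 CPM in APP/PS1/Hras-/- mice, against 0.653, 0.88 and 0.962 CPM in APP/PS1 mice. In females it had 1.04, 0.853 and 0.61 CPM in APP/PS1/Hras-/- mice, against 0.658, 0.633 and 0.838 CPM in APP/PS1 mice. The 3 male APP/PS1/Hras-/- values lie below the 3 male APP/PS1 values by a narrow gap, and the females overlap. The log2 difference was -0.51 in males (SE 0.341, 95% interval -1.24 to 0.23), 0.22 in females and -0.14 across the sexes (95% interval -0.67 to 0.40). A two-sided exact permutation test of the males gave p = 0.1, the smallest that 3 against 3 allows, and 10.3% of all genes had male groups without overlap. The edgeR adjusted p in males was 0.945. The male value was -1.161 with the RNA integrity number in the model (SE 0.614, edgeR adjusted p = 0.685). Leaving out 1 library at a time gave -0.269 to -0.042 across the sexes and 0.026, without APP/PS1/Hras-/- female 1, to 0.409, without APP/PS1/Hras-/- female 3, in females. Ager lies between Pbx2, 462 bases away, and Rnf5, 155 bases away, and shares no exon bases with another gene.

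Abca1 (ENSMUSG00000015243; chr4:53030787-53159895, minus strand) encodes the exporter that loads cholesterol and phospholipid onto apolipoproteins, in the brain mostly apolipoprotein E from astrocytes and microglia. In males it had 47.4, 63.6 and 53.3 CPM in APP/PS1/Hras-/- mice, against 39.7, 54.7 and 51 CPM in APP/PS1 mice. In females it had 51.7, 59.6 and 40.3 CPM in APP/PS1/Hras-/- mice, against 56.4, 60.1 and 66.5 CPM in APP/PS1 mice. Mean levels were 54.7 ± 8.2 CPM in APP/PS1/Hras-/- males, 48.4 ± 7.81 CPM in APP/PS1 males, 50.6 ± 9.68 CPM in APP/PS1/Hras-/- females and 61 ± 5.08 CPM in APP/PS1 females (SD, n = 3 each), and the groups overlap in each sex. The log2 difference was 0.18 in males (95% interval -0.16 to 0.52), -0.27 in females (95% interval -0.61 to 0.06) and -0.05 across the sexes (SE 0.125, 95% interval -0.32 to 0.22). With the RNA integrity number in the model the values were -0.349 in males and -0.21 across the sexes. The male value was 0.051 without APP/PS1 male 1, and the female value -0.133 without APP/PS1/Hras-/- female 3.

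**Figure D3:**
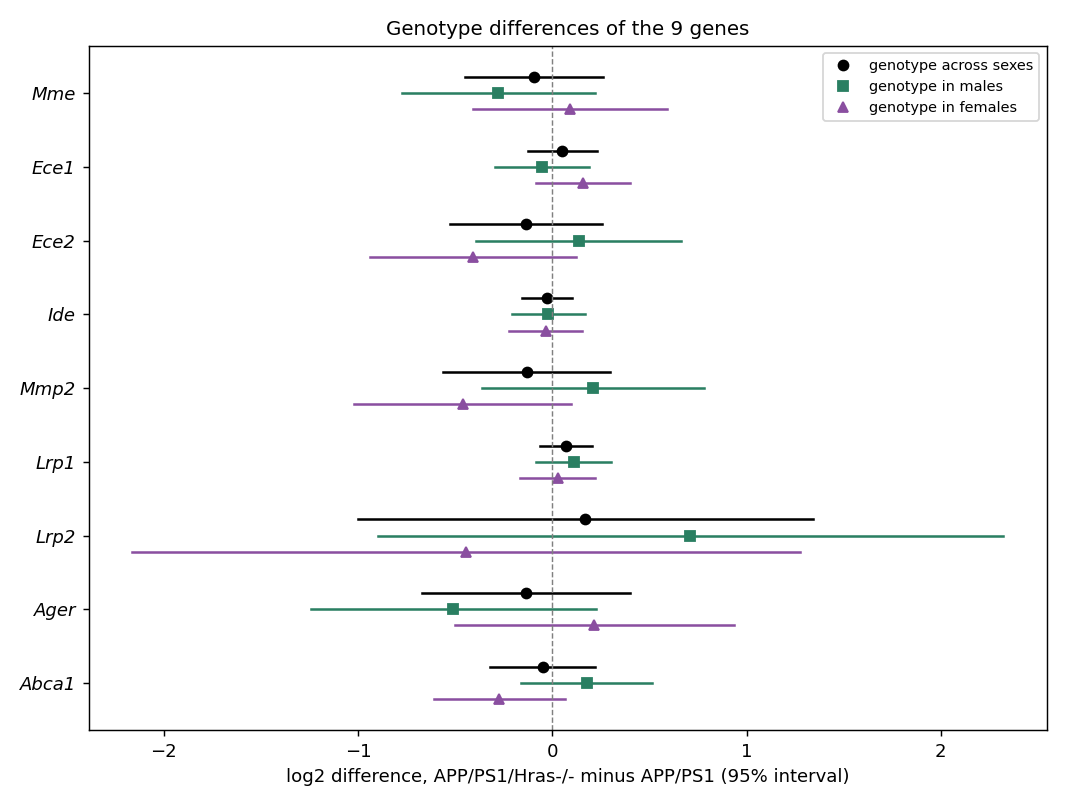
Log2 difference, APP/PS1/Hras-/- minus APP/PS1, with its 95% interval for each gene across the sexes, in males and in females. Every interval shown crosses 0, and those of Ide and Lrp1 across the sexes are the narrowest and those of Lrp2 the widest.

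Whether the genotype difference itself differed between the sexes was tested as an interaction, female difference minus male difference, and 0 of 9 genes passed in edgeR or DESeq2, like 0 of all genes. The lowest unadjusted p among the 9 was that of Abca1, with an interaction of -0.45 on the log2 scale (SE 0.221, 95% interval -0.93 to 0.03, adjusted p = 0.667 by edgeR's quasi-likelihood test). Mmp2 followed with -0.67 (SE 0.37, 95% interval -1.47 to 0.13), and its value without APP/PS1 female 2 was -0.341. With the RNA integrity number in the model Abca1 turned to 0.193, while the largest moves away from 0 were those of Ece2, to -1.641 (SE 0.513, edgeR adjusted p = 0.456), and Mme, to 1.198 (SE 0.514, edgeR adjusted p = 0.523). The integrity number was higher in APP/PS1/Hras-/- than in APP/PS1 males and lower or equal in females. The interaction and RNA quality therefore cannot be told apart. Without both libraries that stood apart the interaction of Ece2 was -0.072. Beside these, the 10 markers of plaque-associated microglia, a state taken up around amyloid, summed to 184 to 310 CPM in APP/PS1/Hras-/- males, 214 to 277 CPM in APP/PS1 males, 257 to 374 CPM in APP/PS1/Hras-/- females and 392 to 483 CPM in APP/PS1 females. Over the 12 libraries Abca1 had r = 0.617 and rho = 0.741 with these markers (permutation adjusted p = 0.198 and 0.156). Its r was 0.363 over APP/PS1/Hras-/- libraries and 0.811 over APP/PS1 libraries. The part of these cells in the Abca1 interaction was not tested.

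Between the sexes, with genotype in the model, 0 of 9 genes passed, against 0.0693% of all genes. An unadjusted p under 0.05 was found for 0 of 9, against 804 genes (4.65%). The median log2 difference, female minus male, was 0.0069 over the 9 genes and 0.0017 over all genes. The largest in size was that of Lrp2 at -0.35 (SE 0.545), followed by Mmp2 at 0.31 (SE 0.201, 95% interval -0.12 to 0.74); the lowest edgeR adjusted p was 0.989. Females and males did not overlap for 0 of 9 genes across the genotypes, against 0.272% of all genes, and for 0 of 9 within APP/PS1/Hras-/- mice, against 5.97%. Within APP/PS1 mice 3 of 9 did not overlap, against 20.1% of all genes: Mmp2 and Abca1 were higher in females, by 0.58 and 0.34 on the log2 scale, and Ece1 was lower, at -0.175, each with an exact permutation p of 0.1, the smallest possible. The RNA integrity number was 8.5 to 8.6 in these females and 7.8 to 8.3 in these males, so sex and RNA quality cannot be told apart there. The same limit holds within APP/PS1/Hras-/- mice, in the other direction, with 8.3 to 8.5 in females and 8.6 to 8.7 in males. The Mmp2 mean rests in part on APP/PS1 female 2 at 6.56 CPM, though the other APP/PS1 females, at 3.64 and 3.7 CPM, also lie above the APP/PS1 males. Marker sums separated these groups too: microglia had 933 to 1010 CPM in APP/PS1 females and 570 to 781 CPM in APP/PS1 males, and astrocytes 6740 to 7370 CPM in APP/PS1 females and 5830 to 6370 CPM in APP/PS1 males. Endothelial and mural markers summed to 497 to 561 CPM in APP/PS1 females and 439 to 481 CPM in APP/PS1 males, and cortical neuron markers to 8230 to 9620 CPM in APP/PS1 females and 9910 to 10700 CPM in APP/PS1 males. Leptomeningeal markers summed to 160 to 241 CPM in APP/PS1 females and 94 to 155 CPM in APP/PS1 males. Those of plaque-associated microglia summed to 392 to 483 CPM in APP/PS1 females and 214 to 277 CPM in APP/PS1 males. The choroid plexus and ependymal, striatal and oligodendrocyte sums overlapped between these groups. The part of these cell types in the 3 genes' values was not tested.

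The other genes of amyloid degradation were 24 proteases and inhibitors, of which 22 were tested. By genotype across the sexes, 0 were called by edgeR and by DESeq2. In APP/PS1/Hras-/- mice 9 were higher and 13 lower, with a median log2 difference of -0.005. Of the 22, 1 had an unadjusted p under 0.05, against 1.68% of all genes. That 1 was Adamts4, a proteoglycan-cleaving protease made by oligodendrocytes, which had 29 ± 6.36 CPM in APP/PS1/Hras-/- mice and 22.5 ± 3.31 CPM in APP/PS1 mice (SD, n = 6 each; log2 difference 0.36, SE 0.15, edgeR adjusted p = 1). Beside it, all 10 oligodendrocyte markers had positive differences, with a median of 0.111, and summed to 3780 to 7920 CPM in APP/PS1/Hras-/- mice and 3600 to 7190 CPM in APP/PS1 mice; their part in the Adamts4 value was not tested. Timp3, a tissue inhibitor of metalloproteinases, had 121 ± 7.01 CPM in APP/PS1/Hras-/- mice and 133 ± 23.9 CPM in APP/PS1 mice (log2 difference -0.12).

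Among 23 other receptors, carriers and transporters, all tested, 0 were called by either tool or had an unadjusted p under 0.05, and 13 were higher and 10 lower, with a median of 0.018. Lrp1b, a receptor close to Lrp1 in structure, averaged 33.8 ± 5.38 CPM in APP/PS1/Hras-/- mice and 28.7 ± 3.81 CPM in APP/PS1 mice (log2 difference 0.24, SE 0.114). It did not pass the test, with an edgeR adjusted p of 1.

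The liver X receptor genes, their partners and their targets other than Abca1 numbered 11, all tested, and 0 were called by either tool or had an unadjusted p under 0.05. Of these 9 were lower and 2 higher in APP/PS1/Hras-/- mice across the sexes, with a median of -0.037, while 6 of the 11 were lower in males and 5 in females, with medians of -0.03 and 0.01. Apoe, the main apolipoprotein of the brain, averaged 1110 ± 114 CPM in APP/PS1/Hras-/- mice and 1220 ± 134 CPM in APP/PS1 mice (log2 difference -0.13, SE 0.0819). Abcg1, another cholesterol exporter and target, averaged 62.9 ± 3.67 CPM in APP/PS1/Hras-/- mice and 59.5 ± 4.73 CPM in APP/PS1 mice (log2 difference 0.08, SE 0.0581). Apoe and Abcg1 are also in the list of receptors and carriers.

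Of 8 genes for ligands of the receptor encoded by Ager and its adaptor, 5 were tested, 0 were called or had an unadjusted p under 0.05, and 4 were lower, with a median of -0.036. S100a10 had 15.3 ± 3.33 CPM in APP/PS1/Hras-/- mice and 13.6 ± 2.53 CPM in APP/PS1 mice (log2 difference 0.16). S100b, an astrocyte calcium-binding protein, had 114 ± 12.8 CPM in APP/PS1/Hras-/- mice and 120 ± 9.94 CPM in APP/PS1 mice (log2 difference -0.07). Among 12 precursors of peptides that these proteases also cut, 0 were called or had an unadjusted p under 0.05, and 5 were higher and 7 lower, with a median of -0.089. Edn3, the endothelin 3 precursor and so a substrate of the endothelin-converting enzymes, averaged 5.76 ± 0.919 CPM in APP/PS1/Hras-/- mice and 7.02 ± 1.26 CPM in APP/PS1 mice (log2 difference -0.28, SE 0.139). Npy, the neuropeptide Y precursor, averaged 44.8 ± 6.11 CPM in APP/PS1/Hras-/- mice and 50.5 ± 7.28 CPM in APP/PS1 mice (log2 difference -0.17, SE 0.1).

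**Figure D4:**
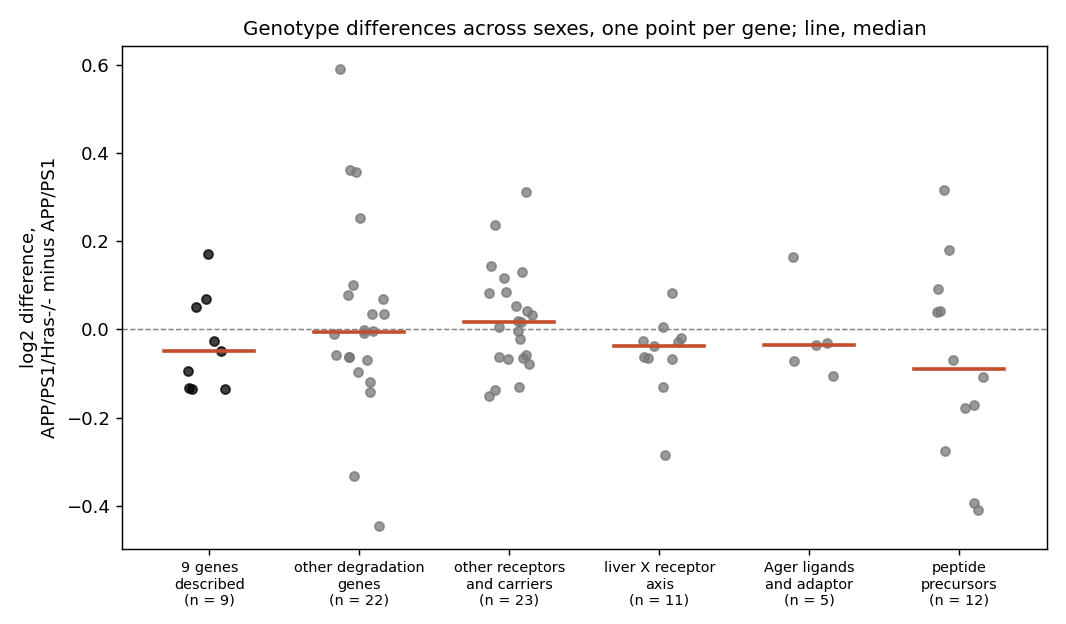
Log2 difference across the sexes, APP/PS1/Hras-/- minus APP/PS1, for the 9 genes and each tested gene of the 5 lists; lines mark medians, from -0.089 for the peptide precursors to 0.018 for the receptors and carriers. Points lie on both sides of 0 in every list.

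Over the 12 libraries the SD of log2 CPM ran from 0.088 for Ide and 0.095 for Lrp1 to 0.86 for Lrp2. Set against the 500 genes nearest in level, Lrp2 stood at percentile 92.2, Abca1 at 88.6 and Mme at 79.6, while Ager stood at 3.4.

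How the genes varied from mouse to mouse was compared with marker lists of 9 cell types or tissues, as 81 relations over the 12 libraries. At adjusted p under 0.05, 0 of the 81 passed for Pearson's r and 0 for Spearman's rho, while 15 had an unadjusted p under 0.05 for r, of which 6 involve Mmp2. The lowest permutation adjusted p for r, 0.0502, lies at the threshold, and with fresh resamples and a prior count of 0.5, 2 relations passed. Mmp2 had r = 0.861 and rho = 0.622 with the leptomeningeal list (permutation p = 0.00065 and 0.0352, adjusted p = 0.0502 and 0.202). Without the 2 libraries farthest from the median of that list its r was 0.574, and within genotypes it was 0.608 over APP/PS1/Hras-/- libraries and 0.929 over APP/PS1 libraries. With the cortical neuron list Mmp2 had r = -0.874 and rho = -0.713 (permutation p = 0.00124 and 0.0115, adjusted p = 0.0502 and 0.156), and -0.565 without the 2 farthest libraries. APP/PS1 female 2 is among the 2 farthest libraries in both. Mmp2 also had r = 0.688 with the microglia, 0.693 with the plaque-associated microglia and 0.663 with the astrocyte list. Each had a permutation adjusted p of 0.0733. Without the 2 libraries farthest in each list these r were 0.702, 0.721 and 0.743. With the choroid plexus and ependymal list Mmp2 had r = 0.75 (permutation adjusted p = 0.0815), and 0.234 without the 2 farthest.

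Ide went with the oligodendrocyte list at r = 0.805 and rho = 0.615 (permutation p = 0.00252 and 0.0374, adjusted p = 0.068 and 0.202), with 0.7 left without the 2 farthest libraries, 0.94 over APP/PS1/Hras-/- libraries and 0.6 over APP/PS1 libraries. Mbp, a defining gene of that list, ran from 1680 to 3750 CPM in APP/PS1/Hras-/- mice and from 1530 to 3470 CPM in APP/PS1 mice. Ece2 had r = 0.751 and rho = 0.643 with the leptomeningeal list (permutation adjusted p = 0.0733 and 0.199). This r was 0.496 without the 2 farthest libraries and 0.387 without the 2 that stood apart. With the cortical neuron list Ece2 had r = -0.712 and rho = -0.406 (permutation adjusted p = 0.0733 and 0.554). That r was -0.521 without the 2 farthest and -0.126 without the 2 that stood apart. Abca1 went with the endothelial and mural list at r = 0.734 and rho = 0.811 (permutation p = 0.00687 and 0.00224, adjusted p = 0.0733 and 0.127), and with the astrocyte list at r = 0.723 and rho = 0.797 (permutation p = 0.0077 and 0.00314, adjusted p = 0.0733 and 0.127). Without the 2 farthest libraries these r were 0.696 and 0.666, and over either genotype alone they were 0.641 or more. The libraries of each genotype come from both sexes. In APP/PS1 mice Abca1, Mmp2 and the endothelial and mural, astrocyte and leptomeningeal sums each separated females from males. Over APP/PS1 libraries these relations and sex therefore cannot be told apart. The 16 endothelial and mural markers summed to 465 to 588 CPM in APP/PS1/Hras-/- mice and 439 to 561 CPM in APP/PS1 mice, and the 10 astrocyte markers to 5630 to 7290 CPM in APP/PS1/Hras-/- mice and 5830 to 7370 CPM in APP/PS1 mice. No defining marker named here was at 0 in any library.

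**Figure D5:**
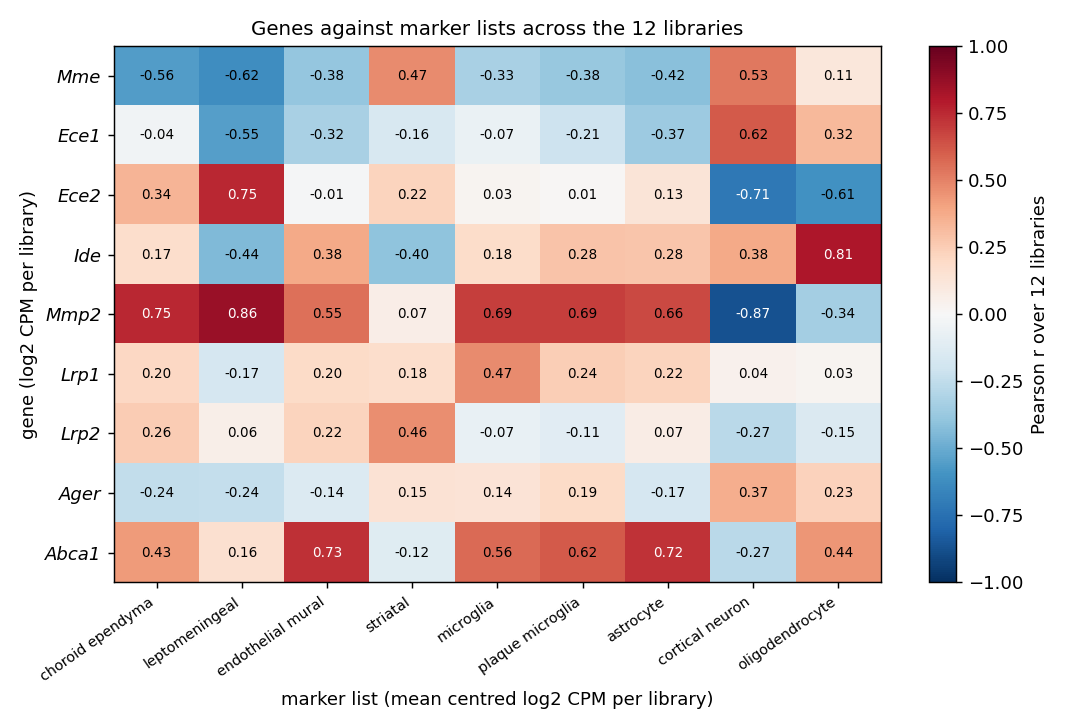
Pearson's r over 12 libraries between each gene (rows) and each marker list (columns), from blue at -1 to red at 1, with the value in each cell. The row of Mmp2 holds the highest and the lowest value, 0.861 with the leptomeningeal and -0.874 with the cortical neuron list. At the prior count of 2 used here, 0 of 81 relations passed the adjusted threshold.

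The genes most like each member over the 12 libraries, by the highest Pearson r of log2 CPM among the 15358 tested genes that averaged 1 CPM or more, are given as a description with no p, since each is the highest of so many. For Mmp2 they were Npr3 (r = 0.939), Ddr2 (0.937) and Lepr (0.937). For Ide they were Rab31 (0.952), Ttll5 (0.949) and Abcd2 (0.947), and for Ece1 Dusp14 (0.956), Aars (0.916) and H2afz (0.913). Abca1 was most like Itprid2 (r = 0.955), Ercc6l2 (0.935) and Smim4 (0.932), and Lrp1 most like Scaf8 (0.909), Ankrd52 (0.898) and Mon2 (0.894). Ece2 was most like Gprin2 (r = 0.938), Tmem164 (0.915) and Spint2 (0.912). Mme was most like Pxk (r = 0.892), Ppp1cc (0.865) and Klhl1 (0.844), Ager most like Cisd2 (0.907), Amd1 (0.859) and Impa1 (0.843), and Lrp2 most like Nr3c2 (0.928), Aass (0.905) and Ppp6r3 (0.886). No nearest tested neighbour on the chromosome reached r of 0.8 with its member.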

How the data were processed

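The authors deposited whole-number read counts per gene for 12 libraries; per the submitters' processing notes the tools were Trimmomatic 0.33, FastQC 0.11.7, HISAT2 2.1.0 and featureCounts, with builds mm10 and mm9 named without a role, and per the labels' protocols libraries were made with a stranded mRNA kit. None of the sources used here gives the strand setting, the annotation release or the treatment of reads in shared exons. Samples were grouped by the genotype and sex labels. Replicate numbers follow the order of the samples and pair nothing, and p-values measure the spread between mice.

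From the counts, genes were filtered with filterByExpr, scaled by the trimmed mean of M values and tested in edgeR 4.0.16 (R 4.3.3) by the robust quasi-likelihood F test with Benjamini-Hochberg adjustment over all 17307 genes at a threshold of 0.05. Genotype across the sexes and sex across genotypes came from an additive model, the differences within a sex and the interaction from a model of 4 group means. Standard errors and 95% intervals were derived from the F statistics, and log2 CPM used a prior count of 2. Permutation tests of correlations used 100000 resamples. The code was tested on simulated data. Alternatives were RLE size factors, DESeq2 1.42.0, no filter on low counts, the RNA integrity number as a covariate, leaving out the 2 libraries that stood apart, leaving out each library, and a prior count of 0.5. The members, gene lists and tests were chosen with earlier results of these data known. The 9 genes were all named; from each pathway list a gene was named if it passed a test, otherwise the 2 with the smallest unadjusted p for genotype across the sexes, of which 1 is not reported here. Identifiers without a symbol in GENCODE M21 numbered 37 and took 0.00986% of counts.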

Additional observations from a re-analysis of the deposited data

Results flagged for a closer look

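Within each genotype the highest and the lowest of 6 libraries were set against the rest for each of the 9 genes, 18 groups in all, and in 3 of them 1 library lay farther out than Dixon's 95% critical ratio allows. Chance flags about 1 in 20 groups. Ece2 was at 6.97 CPM in APP/PS1/Hras-/- male 1, with the other APP/PS1/Hras-/- libraries at 3.76 to 4.82 CPM. Mmp2 was at 6.56 CPM in APP/PS1 female 2, with the other APP/PS1 libraries at 2.47 to 3.7 CPM. Lrp1 was at 689 CPM in APP/PS1 male 1, with the other APP/PS1 libraries at 790 to 830 CPM. The first 2 are the libraries that stood apart as a whole, and the third has the lowest RNA integrity number, 7.8.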

How the results depend on the processing

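No gene of the 9 passed the threshold under any alternative: of 225 member values under the 5 other settings and 540 with 1 library left out, 0 were called, with lowest adjusted p of 0.456 and 0.498 (2 DESeq2 adjusted p are NA). The sign changed in 16 and 32 of them, in 24 of 45 results; the cause was not tested. The log2 differences that changed sign follow, each with its main value in brackets. With the RNA integrity number in the model Lrp2 was at -0.292 (0.171) across the sexes. Male values were -0.165 (0.11) for Lrp1, -0.961 (0.711) for Lrp2 and -0.349 (0.177) for Abca1, and the female value of Ide was 0.019 (-0.034). The interaction was 0.272 (-0.012) for Ide, 0.259 (-0.081) for Lrp1, 0.952 (-1.157) for Lrp2 and 0.193 (-0.45) for Abca1. By sex Ide was at -0.005 (0.007). Without the 2 libraries that stood apart Mmp2 was at 0.002 (-0.132) across the sexes. Male values were then -0.08 (0.136) for Ece2 and 0.055 (-0.021) for Ide. Female values were -0.01 (0.091) for Mme and 0.392 (-0.445) for Lrp2, and by sex Ide was at -0.012 (0.007). With 1 library left out, values across the sexes ran from -0.178 to 0.056 for Mme, -0.03 to 0.086 for Ece1, -0.262 to 0.008 for Ece2, -0.05 to 0.006 for Ide, -0.214 to 0.055 for Mmp2, -0.121 to 0.592 for Lrp2 and -0.13 to 0.039 for Abca1. In males they ran from -0.503 to 0.01 for Mme, -0.077 to 0.313 for Ece2 and -0.074 to 0.058 for Ide. In females they ran from -0.01 to 0.277 for Mme, -0.074 to 0.027 for Ide, -0.026 to 0.087 for Lrp1 and -1.226 to 0.395 for Lrp2. The interaction of Ide ran from -0.093 to 0.049, and by sex Mme ran from -0.232 to 0.001, Ece2 from -0.216 to 0.049 and Ide from -0.033 to 0.034.

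Over all genes, 7 were called across the sexes with DESeq2 and 5 with no filter (3 as reported), 4 in males with DESeq2 (2), 5 and 4 in females (2), and 26 by sex with DESeq2 (12). By sex the count ran from 9 to 20 with 1 library left out, the 20 being without APP/PS1/Hras-/- male 2. With a prior count of 0.5, 2 relations to marker lists passed at a lowest permutation adjusted p of 0.0433, against 0.0502 in the main setting. That setting drew fresh resamples. At either prior count r of Mmp2 was 0.861 with the leptomeningeal and -0.874 with the cortical neuron list. The prior count and the resampling therefore cannot be told apart as the source of the change. Without the 2 libraries 0 passed, at 0.173. Lrp2 and Ager rest on no more than 17 reads a library. No paired analysis was possible because the labels carry no replicate numbers.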
